A study of Mus musculus with 11 samples.

Results

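Complex I is the NADH dehydrogenase at the entry of the mitochondrial respiratory chain, and its nuclear genes carry the prefix Nduf in the mouse. All genes of the deposited expression table whose symbol starts with Nduf were taken, apart from those whose name ends in -ps, which left 49 of 18269. They are 36 structural subunits of the complex, 8 assembly factors of the Ndufaf series, Ndufa4 and Ndufa4l2, which bear the name but are not subunits of complex I, and 3 copies of subunit genes (Ndufa11b, Ndufb4c and Ndufs6b) that GENCODE M21 annotates as processed pseudogenes. The rule uses the symbol alone and no measured value.

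Complex I is L-shaped. Its N module in the matrix oxidises NADH with a flavin, a chain of iron-sulphur clusters carries the electrons to the Q module, where ubiquinone is reduced, and the proximal and distal parts of the membrane arm pump protons. Assembly factors build these modules and join them but are not part of the finished enzyme. The subunits encoded by mitochondrial DNA were not analysed here.

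The 11 RNA libraries came from the tibialis anterior, a shin muscle of mostly fast fibres, of C57BL/6 mice aged 21-24 months, with an injury model named in the protocol. The groups were Depleted young serum (young serum from which extracellular vesicles, the membrane particles released by cells, had been removed; 3 libraries, replicates 2, 3 and 4), Young serum (4 libraries, replicates 1 to 4) and Saline (4 libraries, replicates 2, 3, 4 and 6). Each label names an injection, and age and strain are common to all groups. The labels do not say that each library came from its own animal, so the spread between libraries may in part be technical. Values per library below follow the order of these replicate numbers. CPM are counts per 1e+06 of the library, and differences are on the log2(CPM + 1) scale, where the added 1 understates the change of low genes; fold changes are those differences turned back to a ratio.

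Read depth, taken from the steps between low CPM values, was 36.4 to 42.2 M reads per library (M, 1e+06). All 8 fast fibre markers (such as Myh4 and Actn3) were at 1 CPM or more in every library, with summed levels of 124878 to 133613 CPM in Depleted young serum, 139239 to 153012 in Young serum and 112650 to 147885 in Saline. The Saline library with replicate number 6 stood apart from the other Saline libraries for most Nduf genes, and it also had the highest sums of the 8 slow fibre markers (5545 CPM, against 256 to 477 CPM in the other Saline libraries) and of the 5 red blood cell markers (1488 CPM, against 191 to 468 CPM). The slow fibre sum was 1420 to 2229 CPM in Depleted young serum and 242 to 1652 CPM in Young serum. The red blood cell sum was 255 to 282 CPM in Depleted young serum and 89.1 to 250.2 CPM in Young serum, without overlap, and the part of these markers in the Nduf results was not tested. Adipocyte markers peaked in Saline replicate 4 (3323 CPM; 248 to 429 CPM in Depleted young serum, 229 to 397 in Young serum and 298 to 449.8 in the other Saline libraries), with 6 of the 7 at 1 CPM or more in every library. Macrophage sums were 68.3 to 114 CPM in Depleted young serum, 48.1 to 144 in Young serum and 119 to 318 in Saline. No marker on these lists was at 0 in any library. In bulk muscle, fewer cells of a type and less RNA per cell cannot be told apart.

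Promoters of respiratory chain genes are known for sites of the nuclear factors NRF1 and YY1, of ETS family factors and of the estrogen-related receptors (ERR), so the start-site windows of the Nduf genes were read for these motifs on both strands. RefSeq windows (GRCm38.p6, 250 bases before to 50 after the start) existed for 40 of the 49 genes, 32 of them subunits and 7 assembly factors, with 42 windows in all. The NRF1 core letters GCGCANGCG were in 26.2% of these windows, against 12.9% of the windows of all tested genes and 6.25% of all windows. The YY1 letters AAGATGGCG were in 14.3%, against 2.99% and 1.40%, and the ETS letters CCGGAAG also in 14.3%, against 16.9% and 8.86%. The ERR letters TCAAGGTCA were in 0 of the 42 windows, against 0.263% and 0.423%. A match describes letters only, and none of these shares was tested.

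The stretches shown here surround 1 match in each of 6 genes whose levels are described below. They cover both kinds of gene, subunits first and assembly factors after them. Capitals mark the match, which in Ndufaf4 is a pair of overlapping ones on opposite strands. Ndufs6 holds the NRF1 letters on the opposite strand, and the Ndufaf8 stretch holds the ETS letters as well, left in lower case. All are from RefSeq on GRCm38.p6, read 5′ to 3′ along the gene. RefSeq starts can differ from those of GENCODE M21, and the Ndufa5, Ndufs6 and Ndufb7 stretches lie within the GENCODE span of their genes.
Ndufa5 (NRF1, chr6:24527684-24527740, minus strand): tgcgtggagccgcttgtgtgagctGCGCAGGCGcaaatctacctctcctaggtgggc
Ndufs6 (NRF1, chr13:73328465-73328521, minus strand): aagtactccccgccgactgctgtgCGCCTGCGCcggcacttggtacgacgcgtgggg
Ndufb7 (ETS, chr8:83566714-83566768, plus strand): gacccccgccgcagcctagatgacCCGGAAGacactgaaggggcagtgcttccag
Ndufaf1 (ETS, chr2:119662822-119662876, minus strand): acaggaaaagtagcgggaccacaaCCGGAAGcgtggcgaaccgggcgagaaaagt
Ndufaf4 (NRF1, chr4:24897946-24898003, plus strand): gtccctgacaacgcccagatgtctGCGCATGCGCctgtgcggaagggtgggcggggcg
Ndufaf8 (YY1, chr11:120098920-120098953, plus strand): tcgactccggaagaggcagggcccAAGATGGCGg

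Subunit transcripts were far more abundant than those of the assembly factors. Divided by transcript length (the principal transcript of GENCODE M21), the 36 subunits had a median level of 183 CPM per kilobase over all libraries (13.7 to 688), the 8 assembly factors 15.2 (7.26 to 22.2) and all tested genes 4.33. Of the 36 subunits, 34 lay above the highest assembly factor per kilobase. Ndufb8, an accessory subunit of the distal arm, led with 688 CPM per kilobase, and Ndufb4 was lowest with 13.7. The rank of Ndufb4 is uncertain, because its copy Ndufb4c held 94.1% of their summed CPM. Ndufab1, the mitochondrial acyl carrier protein, had 15.8 CPM per kilobase on a transcript of 3479 bases, so its rank depends on the transcript taken.

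Muscle given Young serum had lower levels than Saline for all 36 subunits, and muscle given Depleted young serum had higher levels than Young serum for all 36, but no Nduf gene passed the test in any comparison. limma with Benjamini-Hochberg adjustment called 0 of 13187 genes (0%) in each comparison. In Young serum minus Saline a fit that weights libraries, whose weights stopped before convergence, called 24 Nduf genes, all lower, among 3441 genes in all, of which 1218 were lower (9.24% of all genes). For Young serum minus Saline the median log2 difference of the subunits was -0.54 (0.690-fold, from -0.97 to -0.09), against -0.02 over all genes tested, of which 52.5% were below 0. An unadjusted p under 0.05 on the lower side was reached by 24 subunits (11.4% of all genes), and 14 subunits had all Young serum libraries below all Saline libraries (6.08% of all genes). The smallest adjusted p of a member was 0.180.

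For Depleted young serum minus Young serum the median difference of the subunits was 0.31 (1.24-fold, from 0.12 to 0.50), against 0.00 over all genes, of which 51.3% were above 0. On the higher side 7 subunits had an unadjusted p under 0.05 (1.75% of all genes) and 6 had groups that did not overlap (4.16%). For Depleted young serum minus Saline 32 of 36 subunits were below 0 and 4 above, with a median of -0.22 (0.860-fold), while 50.4% of all genes were below 0. Among genes with transcripts of 171 to 1528 bases, which include 27 of the 36 subunits, 79.6% were below 0. In that comparison 0 subunits had an unadjusted p under 0.05, where 5.59% of all genes did on the lower side and 6.49% on the higher. The 3 comparisons share their groups in pairs, so their differences are not independent of each other.

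These counts moved with single libraries; shares in brackets are those of all genes under the same omission. Without Saline replicate 6 all 36 subunits were still lower in Young serum than in Saline, but with a median of -0.31. Of them, 19 had an unadjusted p under 0.05 (8.61%) and 14 did not overlap (7.46%). Over all genes the median was then -0.06, with 7631 of 13187 below 0. Without Saline replicate 2, 35 of 36 subunits were lower, as were 7117 of 13187 genes, and 28 subunits did not overlap (15.5%). Without Young serum replicate 1, 15 subunits had that p on the lower side (9.61%), and without Young serum replicate 4, 12 had it (5.39%). Without Young serum replicate 3, 27 did not overlap (10.1%). For Depleted young serum minus Young serum, the subunit median was 0.18 without Depleted young serum replicate 3. Then 32 of 36 subunits were above 0 and 1 had that p on the higher side (1.65%). Over all genes the median was 0.07 under that omission, with 8841 of 13187 above 0. Without Depleted young serum replicate 4 the subunit median was 0.42 and that of all genes -0.06. There 11 subunits had that p (1.40%) and 27 did not overlap (8.70%). The count at that p was 1 without Depleted young serum replicate 2 (0.804%), 2 without Young serum replicate 1 (1.12%) and 1 without Young serum replicate 4 (0.599%). Without Young serum replicate 3, 19 did not overlap (7.19%). For Depleted young serum minus Saline, leaving out Saline replicate 6 left 17 subunits above 0 and 19 below, with a median of -0.02. Of all genes, 7248 of 13187 were then below 0. In that comparison the subunit median was -0.35 without Depleted young serum replicate 3, and that of all genes 0.05. There 4 subunits had that p on the lower side (5.34%) and 6 did not overlap (9.47%). Without Depleted young serum replicate 4 the subunit median was -0.10 and that of all genes -0.06. In that fit 1 subunit did not overlap on the higher side (4.41%). Without Saline replicate 2, 3 subunits had that p on the lower side (11.4%) and 1 on the higher (10.7%), and without Saline replicate 4, 1 had it on the lower side (3.59%).

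**Figure D1:**
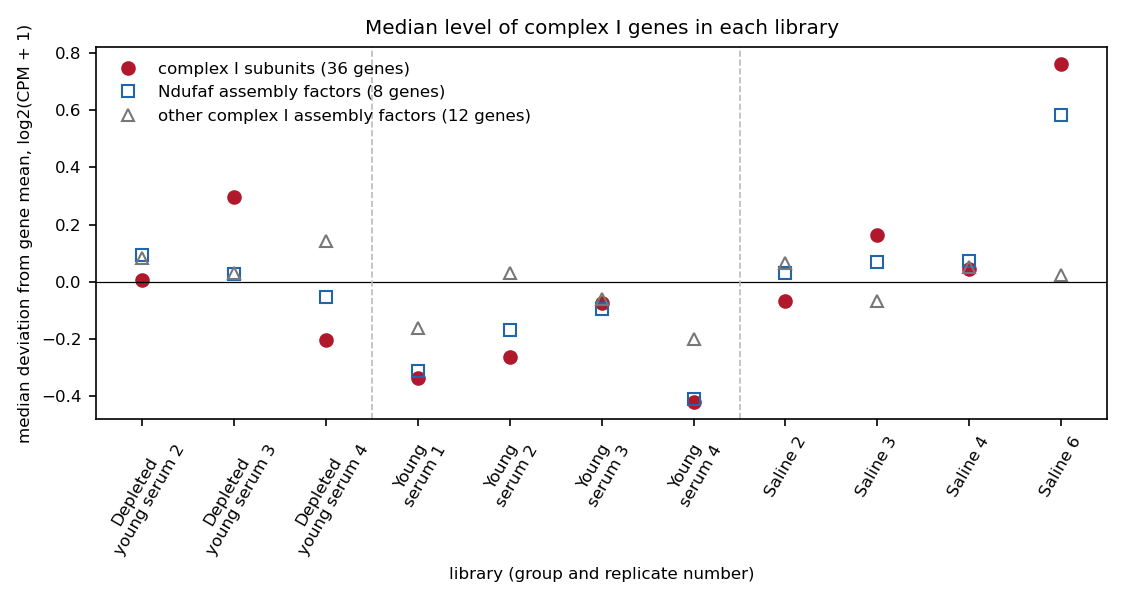
Median deviation from each gene's mean over the 11 libraries, on the log2(CPM + 1) scale (y axis), for each library (x axis), of 36 complex I subunits (filled circles), 8 Ndufaf assembly factors (squares) and 12 other complex I assembly factors (triangles). Saline replicate 6 is highest for the subunits (0.76) and the Ndufaf genes (0.58), and Young serum replicate 4 is lowest for both (-0.42 and -0.41).

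The libraries themselves showed where the group differences lay. The subunit median, as a deviation from each gene's mean, was 0.01, 0.30 and -0.20 in Depleted young serum, -0.33, -0.26, -0.07 and -0.42 in Young serum, and -0.07, 0.16, 0.05 and 0.76 in Saline. All 4 Young serum libraries were thus below 0, with replicate 3 level with the lowest Saline library. Saline replicate 6 was the highest of the 11 libraries for 32 of 36 subunits, and Young serum replicate 4 the lowest for 22, replicate 1 for 9 and Depleted young serum replicate 4 for 5. With Saline replicate 6 set aside, Depleted young serum replicate 3 was the highest for 31 of 36.

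Among the 8 subunits of the N module the median difference was -0.54 for Young serum minus Saline (-0.78 to -0.09), 0.32 for Depleted young serum minus Young serum (0.19 to 0.35) and -0.26 for Depleted young serum minus Saline (-0.55 to 0.25). Ndufv1, the subunit that binds NADH and flavin, stood at 429, 458 and 349.7 CPM in Depleted young serum, at 289.2, 359, 356 and 293 CPM in Young serum and at 357, 345, 352 and 448 CPM in Saline. Its Young serum libraries split into a pair at the Saline level and a pair below all others. Ndufv2, which carries an iron-sulphur cluster beside the flavin, stood at 265, 322 and 227 CPM in Depleted young serum, at 199, 219.9, 252 and 188 CPM in Young serum and at 254, 290.4, 267 and 765 CPM in Saline. Saline replicate 6 held the highest value by far, while all Young serum values were below all Saline values. Ndufs1, the largest subunit of the arm and a carrier of several iron-sulphur clusters, stood at 410.5, 358 and 391 CPM in Depleted young serum, at 287, 345, 329 and 262 CPM in Young serum and at 404, 271, 327 and 306 CPM in Saline. Ndufs1 was the 1 subunit for which Saline replicate 6 was below the median of the other Saline libraries, and its Depleted young serum values all exceeded those of Young serum.

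In the tests, Ndufv1 and Ndufs1 had the smallest differences of the N module in Young serum minus Saline (-0.21 ± 0.13 and -0.09 ± 0.13, SE; adjusted p = 0.335 and 0.703), and Ndufv2 differed by -0.71 ± 0.30 (adjusted p = 0.205). Against Young serum, Ndufv1 was 1.27-fold as high in Depleted young serum (0.34 ± 0.14, adjusted p = 0.99998), and Ndufs1 also differed by 0.34. Ndufs1 was 1.19-fold as high in Depleted young serum as in Saline (0.25 ± 0.14, adjusted p = 0.448). Ndufa2, a thioredoxin-fold accessory subunit at the tip, stood at 162, 219.7 and 115 CPM in Depleted young serum, at 140.5, 127, 163 and 122 CPM in Young serum and at 167, 219, 204 and 415 CPM in Saline. For Ndufa2 the difference was -0.55 ± 0.28 in Depleted young serum minus Saline (adjusted p = 0.428), and without Saline replicate 6 it was -0.28. Ndufs6, a zinc-binding subunit needed late in assembly, stood at 113, 156 and 97.7 CPM in Depleted young serum, at 102, 98.7, 110.0 and 81.9 CPM in Young serum and at 119, 155, 129 and 207 CPM in Saline. Its groups did not overlap between Young serum and Saline, and its difference in Depleted young serum minus Saline was -0.31 ± 0.20 (adjusted p = 0.488; -0.15 without Saline replicate 6 and -0.50 without Depleted young serum replicate 3).

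The 8 subunits of the Q module had a median difference of -0.37 in Young serum minus Saline (-0.89 to -0.30); the medians were 0.27 for Depleted young serum minus Young serum and -0.13 for Depleted young serum minus Saline. The core subunits Ndufs3, Ndufs7 and Ndufs8 had the same order of means, lowest in Young serum and highest in Saline. Ndufs3, which joins the Q module to the N module, stood at 228, 266 and 196 CPM in Depleted young serum, at 192, 198, 222 and 180.3 CPM in Young serum and at 226, 255, 229.9 and 297 CPM in Saline. Ndufs7, which holds the last iron-sulphur cluster before ubiquinone, stood at 365, 424 and 235 CPM in Depleted young serum, at 272, 313, 355 and 286 CPM in Young serum and at 319.7, 393, 365 and 499 CPM in Saline. Ndufs8, a further iron-sulphur subunit, stood at 111, 112 and 84.0 CPM in Depleted young serum, at 72.0, 92.3, 97.9 and 74.1 CPM in Young serum and at 93.2, 97.8, 90.4 and 168 CPM in Saline. Only Ndufs3 of these 3 had all Young serum values below all Saline values, and Depleted young serum replicate 4 held the lowest Ndufs7 value of all libraries. Their differences in Young serum minus Saline were -0.34 ± 0.13 for Ndufs3, -0.35 ± 0.19 for Ndufs7 and -0.38 ± 0.20 for Ndufs8 (adjusted p = 0.183, 0.281 and 0.275).

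Of the accessory subunits of the Q module, Ndufa5 (ENSMUSG00000023089.12, mm10 chromosome 6, 24518666 to 24528013), the gene with the NRF1 letters shown above, stood at 152, 190.2 and 149 CPM in Depleted young serum, at 131, 132, 137 and 103 CPM in Young serum and at 149, 176, 173 and 238 CPM in Saline. Young serum was below both other groups in every library of Ndufa5. The difference was -0.53 ± 0.15 in Young serum minus Saline (SE; 0.691-fold, adjusted p = 0.180; -0.40 without Saline replicate 6). Ndufa9, a subunit of the dehydrogenase fold near the ubiquinone site, stood at 230.4, 249 and 197 CPM in Depleted young serum, at 154, 195, 204 and 156 CPM in Young serum and at 199.9, 202, 211 and 261 CPM in Saline. In Ndufa9, Young serum replicates 1 and 4 were lowest and the rest overlapped, with Depleted young serum minus Young serum at 0.35 ± 0.14 (1.27-fold, adjusted p = 0.99998). Ndufa7 had the lowest difference of the module in Young serum minus Saline, -0.89 ± 0.46, and its level in Saline replicate 6 was 558 CPM, the others in Saline being 89.8 to 115 CPM.

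**Figure D2:**
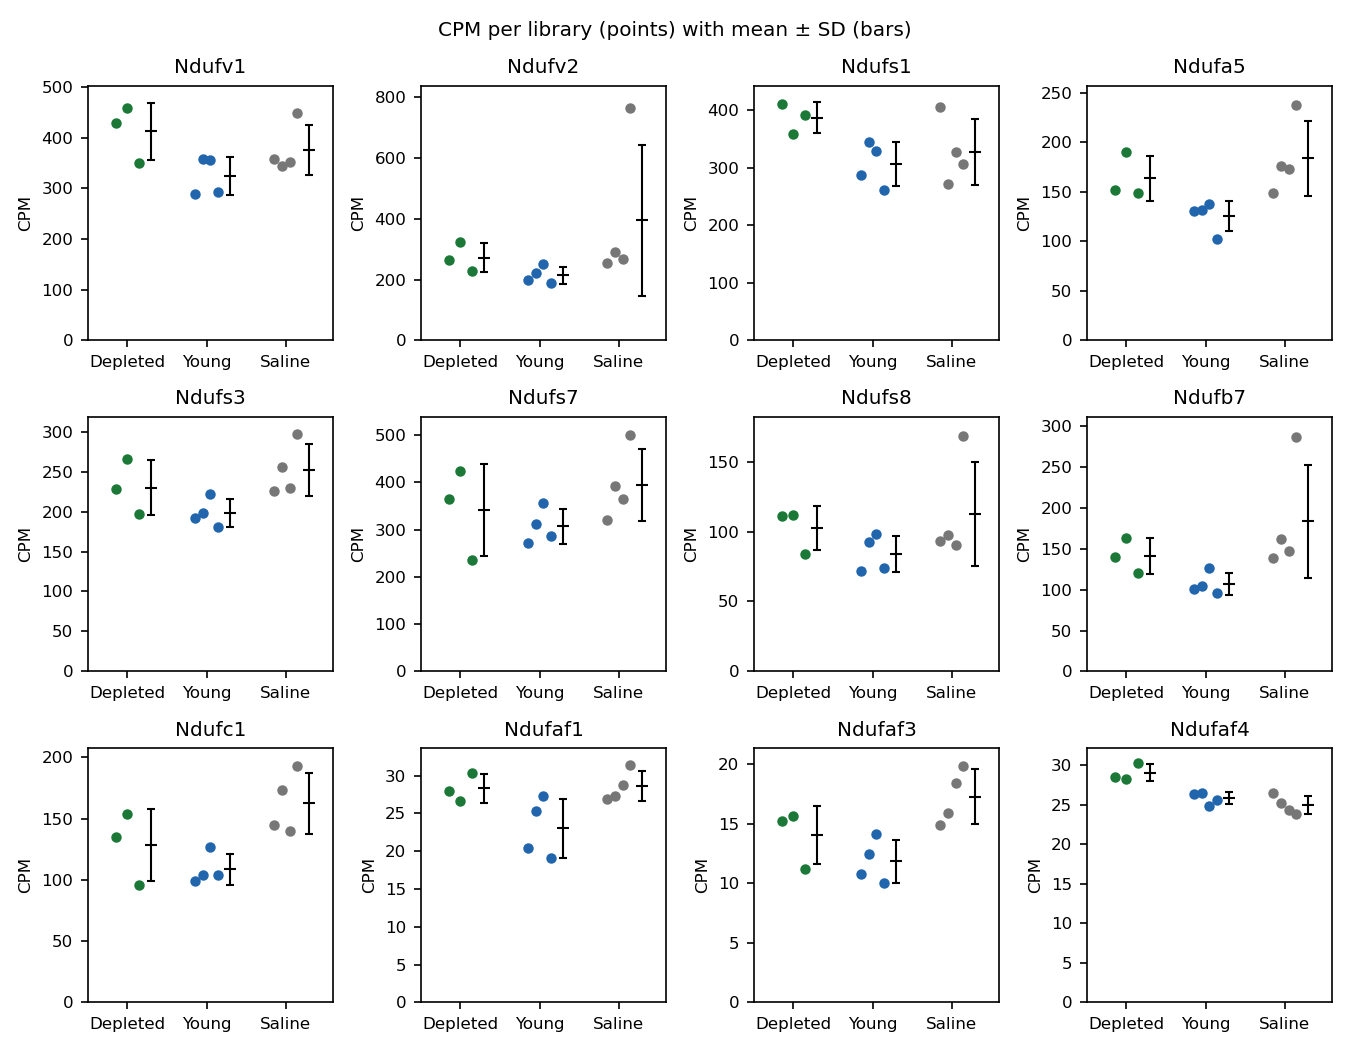
CPM (y axis, linear, from 0) of 12 Nduf genes in Depleted young serum (3 libraries), Young serum (4) and Saline (4); points are libraries and bars the mean ± SD. Ndufa5 shows the Young serum libraries (103 to 137 CPM) below those of Saline (149 to 238 CPM), and Ndufv2 shows Saline replicate 6 at 765 CPM.

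In the proximal membrane arm 9 of 9 subunits were below 0 in Young serum minus Saline (median -0.55, from -0.78 for Ndufa3 to -0.14 for Ndufa10), 9 of 9 above 0 in Depleted young serum minus Young serum (0.28), and 8 of 9 below 0 in Depleted young serum minus Saline (-0.24). Ndufc1 (ENSMUSG00000037152.11, mm10 chromosome 3, 51404677 to 51408988), a small accessory subunit of the membrane arm, stood at 135, 154 and 96.1 CPM in Depleted young serum, at 99.3, 104, 127 and 104 CPM in Young serum and at 144, 173, 140.0 and 193 CPM in Saline. Its Young serum values were all below its Saline values, and Depleted young serum reached from below the Young serum range into the Saline range. Ndufc1 averaged 128 ± 29.4 CPM in Depleted young serum (SD, n = 3), 109 ± 12.4 CPM in Young serum (SD, n = 4) and 163 ± 25.0 CPM in Saline (SD, n = 4). Young serum minus Saline was -0.57 ± 0.16 (0.672-fold, adjusted p = 0.180), and Depleted young serum minus Saline was -0.36 ± 0.17 (adjusted p = 0.420; -0.16 without Depleted young serum replicate 4).

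The distal membrane arm had a median of -0.69 in Young serum minus Saline (11 of 11 below 0, from -0.97 for Ndufb8 to -0.44 for Ndufb5); the medians were 0.33 in Depleted young serum minus Young serum and -0.27 in Depleted young serum minus Saline. Without Saline replicate 6 the medians of Young serum minus Saline were -0.31 for the N module, -0.27 for the Q module, -0.34 for the proximal arm and -0.31 for the distal arm. Those of Depleted young serum minus Saline were then 0.01, -0.04, -0.07 and 0.02 in the same order. Whether the modules differ from each other was not tested. Ndufb7 (ENSMUSG00000033938.5, mm10 chromosome 8, 83566671 to 83571626), a subunit facing the intermembrane space, stood at 140.1, 163 and 121 CPM in Depleted young serum, at 100.5, 105, 127 and 96.2 CPM in Young serum and at 139, 162, 147 and 287 CPM in Saline. Young serum was below Saline in every library of Ndufb7, and Saline replicate 6 was the highest. The difference was -0.72 ± 0.21 (0.609-fold, adjusted p = 0.180), and -0.48 without Saline replicate 6. Ndufab1 (ENSMUSG00000030869.11, mm10 chromosome 7, 122085403 to 122101886) stood at 56.4, 70.4 and 56.8 CPM in Depleted young serum, at 41.1, 44.8, 51.2 and 35.8 CPM in Young serum and at 49.2, 61.1, 60.5 and 76.5 CPM in Saline. All 3 Depleted young serum values of Ndufab1 exceeded all 4 Young serum values, and the difference of 0.50 ± 0.16 (1.41-fold, adjusted p = 0.99998) was the highest among the subunits in that comparison, at 0.34 with its copy Ndufab1-ps summed in. Ndufab1 averaged 61.2 ± 7.99 CPM in Depleted young serum (SD, n = 3), against 61.8 ± 11.2 CPM in Saline (SD, n = 4).

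The 8 Ndufaf genes lay on the same side of 0 as most subunits in each comparison, except Ndufaf4 against Saline. For Young serum minus Saline 7 were below 0 and 1 above, with a median of -0.49 (0.712-fold); 6 had an unadjusted p under 0.05 on the lower side (11.4% of all genes) and 4 had groups that did not overlap (6.08%). The count of 6 was 1 without Young serum replicate 4, 2 without Young serum replicate 1, 3 without Saline replicate 6 and 4 without Young serum replicate 2 or 3 (5.39%, 9.61%, 8.61%, 6.73% and 9.80% of all genes). The count of 4 was 7 without Young serum replicate 3 (10.1%), and 6 without Saline replicate 2 (15.5%). For Depleted young serum minus Young serum 8 of 8 were above 0 with a median of 0.22, of which 0 had an unadjusted p under 0.05 and 3 did not overlap (4.16% of all genes). The count of 3 was 6 without Depleted young serum replicate 4 (8.70%) and 6 without Young serum replicate 3 (7.19%). For Depleted young serum minus Saline 7 were below 0, with a median of -0.19, and 1 did not overlap on the higher side (3.39% of all genes). Without Saline replicate 6 the medians against Saline were -0.27 for Young serum and -0.04 for Depleted young serum, where 4 were above 0 and 4 below. The median of Depleted young serum minus Saline was -0.11 without Depleted young serum replicate 4 and -0.29 without Saline replicate 2.

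Ndufaf3 and Ndufaf4 act together in building the Q module, yet their values ran differently. Ndufaf3 (ENSMUSG00000070283.4, mm10 chromosome 9, 108565537 to 108567434) stood at 15.3, 15.7 and 11.2 CPM in Depleted young serum, at 10.8, 12.4, 14.1 and 9.99 CPM in Young serum and at 14.9, 15.9, 18.4 and 19.8 CPM in Saline. Ndufaf4 (ENSMUSG00000028261.13, mm10 chromosome 4, 24898083 to 24905001) stood at 28.5, 28.3 and 30.3 CPM in Depleted young serum, at 26.4, 26.5, 24.9 and 25.5 CPM in Young serum and at 26.4, 25.2, 24.3 and 23.8 CPM in Saline. Young serum was below Saline in every library of Ndufaf3, whereas for Ndufaf4 the Young serum and Saline values overlapped and the Depleted young serum values were above all others. The difference in Young serum minus Saline was -0.51 ± 0.15 for Ndufaf3 (0.701-fold, adjusted p = 0.180) and 0.05 ± 0.09 for Ndufaf4 (adjusted p = 0.764). In Depleted young serum minus Saline it was -0.28 ± 0.17 for Ndufaf3 (adjusted p = 0.451; -0.14 without Depleted young serum replicate 4) and 0.21 ± 0.10 for Ndufaf4 (1.16-fold, adjusted p = 0.412).

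Some Ndufaf proteins are modifying enzymes. Ndufaf7, a protein methyltransferase, stood at 16.5, 15.2 and 14.7 CPM in Depleted young serum, at 12.5, 14.0, 13.5 and 12.7 CPM in Young serum and at 16.1, 15.8, 17.4 and 15.2 CPM in Saline. Its Young serum values were below those of both other groups, with -0.27 ± 0.10 in Young serum minus Saline (0.828-fold, adjusted p = 0.187) and 0.22 ± 0.11 in Depleted young serum minus Young serum (1.16-fold, adjusted p = 0.99998). Ndufaf5, which hydroxylates Ndufs7, stood at 25.9, 22.3 and 21.9 CPM in Depleted young serum, at 19.8, 20.4, 22.2 and 17.0 CPM in Young serum and at 24.6, 21.6, 23.7 and 65.0 CPM in Saline. Ndufaf8, the partner of Ndufaf5, stood at 17.0, 19.5 and 17.4 CPM in Depleted young serum, at 12.9, 13.4, 16.2 and 12.6 CPM in Young serum and at 14.2, 18.0, 19.3 and 27.8 CPM in Saline. Ndufaf8 was lower in Young serum than in every Depleted young serum library, and both genes were highest in Saline replicate 6.

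The remaining factors act on other steps. Ndufaf1, part of the complex that assembles the membrane arm, stood at 28.0, 26.6 and 30.4 CPM in Depleted young serum, at 20.4, 25.3, 27.3 and 19.1 CPM in Young serum and at 27.0, 27.3, 28.8 and 31.4 CPM in Saline. Young serum replicates 1 and 4 were the lowest for Ndufaf1, and the difference in Depleted young serum minus Young serum was 0.30 ± 0.14 (1.23-fold, adjusted p = 0.99998). Ndufaf2, a relative of the subunit Ndufa12 that acts late in assembly, stood at 6.72, 7.58 and 7.21 CPM in Depleted young serum, at 7.27, 6.84, 6.65 and 5.23 CPM in Young serum and at 7.57, 8.72, 7.91 and 18.2 CPM in Saline. Ndufaf6, which acts on early membrane arm intermediates, stood at 19.4, 21.2 and 18.1 CPM in Depleted young serum, at 15.5, 17.2, 18.6 and 17.2 CPM in Young serum and at 22.8, 20.7, 18.8 and 59.9 CPM in Saline. For both, Saline replicate 6 stood far above every other library, and the other libraries lay between 5.23 and 8.72 CPM for Ndufaf2 and between 15.5 and 22.8 CPM for Ndufaf6.

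Complex I needs assembly factors with other names as well, and 12 of 13 on a list of these were in the table. Their median difference was -0.12 in Young serum minus Saline (10 below 0, 2 above), 0.17 in Depleted young serum minus Young serum (10 above 0) and 0.03 in Depleted young serum minus Saline (6 above 0). Dmac1, a factor of the distal membrane arm, had an unadjusted p under 0.05 against Saline in both serum groups. Its differences were -0.52 ± 0.16 in Young serum and -0.40 ± 0.17 in Depleted young serum (adjusted p = 0.180 and 0.407). It was the 1 gene of the list with such a p there. Of all genes, 11.4% and 5.59% had it on the lower side. Aifm1, a flavoprotein that supports the import of complex I subunits, was the 1 gene of the list with such a p in Depleted young serum minus Young serum (0.32 ± 0.14, adjusted p = 0.99998). On the higher side 1.75% of all genes had such a p in that comparison. In Saline replicate 6 the factors of the list were at a median of 0.978 times the median of the other Saline libraries. All genes tested were at a median of 0.898 times.

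The group medians of subunits and Ndufaf factors lay close together. The subunit median minus the Ndufaf median was -0.05 in Young serum minus Saline, 0.09 in Depleted young serum minus Young serum and -0.03 in Depleted young serum minus Saline, all smaller than the spread of that quantity between libraries of a group (pooled SD 0.14). With libraries weighted it was -0.16, 0.03 and -0.15 in the same order, so both gaps relative to Saline then exceeded that spread. In Depleted young serum minus Young serum it was -0.02 without Depleted young serum replicate 3, the library in which the subunits stood at 0.30 and the Ndufaf genes at 0.03. With the other assembly factors added to the Ndufaf genes, subunits minus factors was -0.32 in Young serum minus Saline and -0.18 in Depleted young serum minus Saline. These gaps leaned on Saline replicate 6. Without it the medians of subunits and of the other factors alone were -0.31 and -0.14 in Young serum minus Saline. In Depleted young serum minus Saline they were then -0.02 and 0.01. The SD of 0.14 is that of single libraries and not the error of a gap between groups, and no gap was tested. Subunits of complexes II to IV, 24 genes, had medians of -0.51, 0.35 and -0.17 in Young serum minus Saline, Depleted young serum minus Young serum and Depleted young serum minus Saline, and 24 of 24 were below 0 in Young serum minus Saline.

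**Figure D3:**
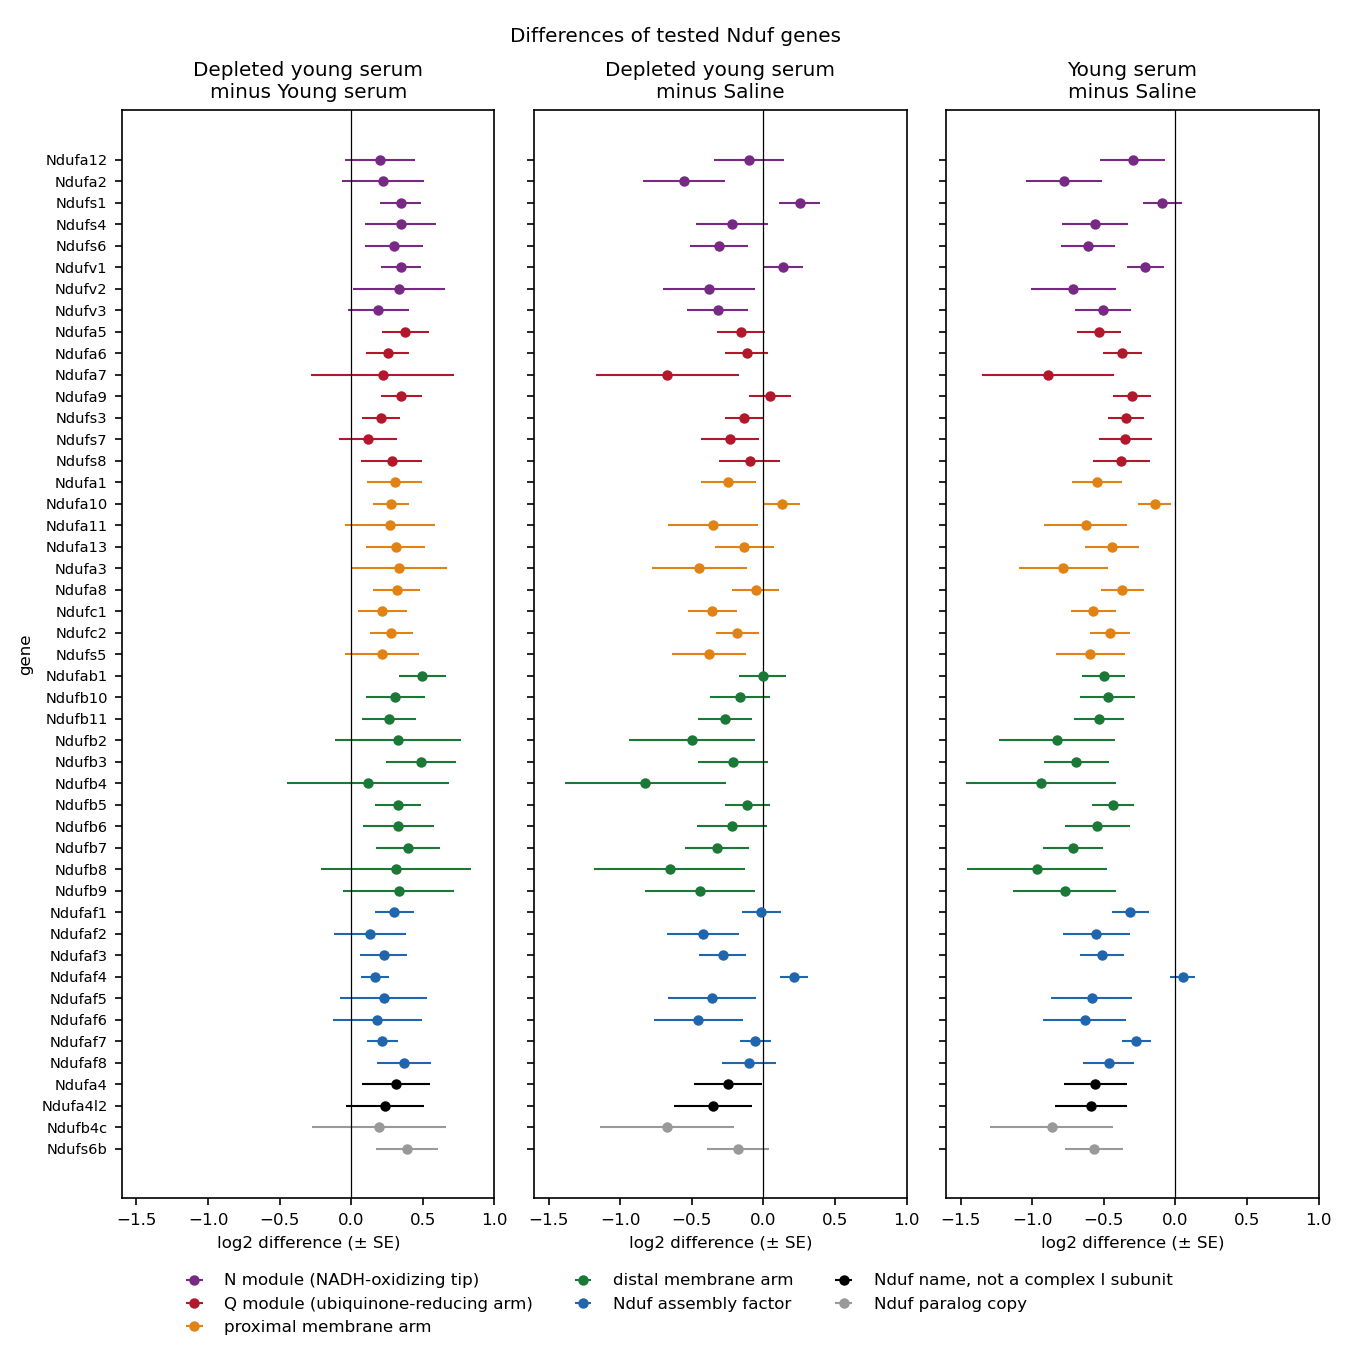
Log2 difference ± SE (x axis, log2(CPM + 1) scale) of tested Nduf genes (y axis) in Depleted young serum minus Young serum, Depleted young serum minus Saline and Young serum minus Saline, coloured by module or role. In the right panel all genes shown but Ndufaf4 (0.05) are left of 0, down to -0.97 for Ndufb8; in the left panel all shown are right of 0.

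Ndufa4, once assigned to complex I and now placed in cytochrome c oxidase, stood at 346, 424 and 320.3 CPM in Depleted young serum, at 288, 291, 319 and 266 CPM in Young serum and at 339, 359, 370.3 and 747 CPM in Saline. Ndufa4l2, its relative known for induction in low oxygen, stood at 8.74, 9.29 and 6.63 CPM in Depleted young serum, at 6.93, 7.02, 8.29 and 5.19 CPM in Young serum and at 7.26, 8.04, 11.7 and 18.6 CPM in Saline. Ndufa4 was lower in every Young serum library than in every library of the other groups, with -0.56 ± 0.22 in Young serum minus Saline (adjusted p = 0.192), and the Ndufa4l2 groups overlapped (-0.59 ± 0.25, adjusted p = 0.212).

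The excess in Saline replicate 6 was uneven among the Nduf genes. Its CPM over the median of Saline replicates 2, 3 and 4 was 1.58 for the median subunit (0.935 to 6.94), with 12 of 36 subunits at 2-fold or more, where 5.78% of all genes were. The distal arm subunits Ndufb4 (6.94), Ndufb8 (6.39), Ndufb2 (4.71) and Ndufb9 (3.67) and the Q module subunit Ndufa7 (5.53) had the highest ratios, and Ndufb8 stood at 2065 CPM there against 319 to 356 CPM in the other Saline muscles. The ratio was 1.39 for the median Ndufaf gene and 1.89 for the median gene of complexes II to IV. It was below 1 for Ndufs1 (0.935), Ndufaf7 (0.943) and Ndufaf4 (0.944). Over all genes tested the median ratio was 0.898, with 38.0% above 1, so these genes still lay above the median gene. By transcript length the median ratio of all genes ran from 1.23 in the shortest bin of the split described below to 0.695 in the longest.

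**Figure D4:**
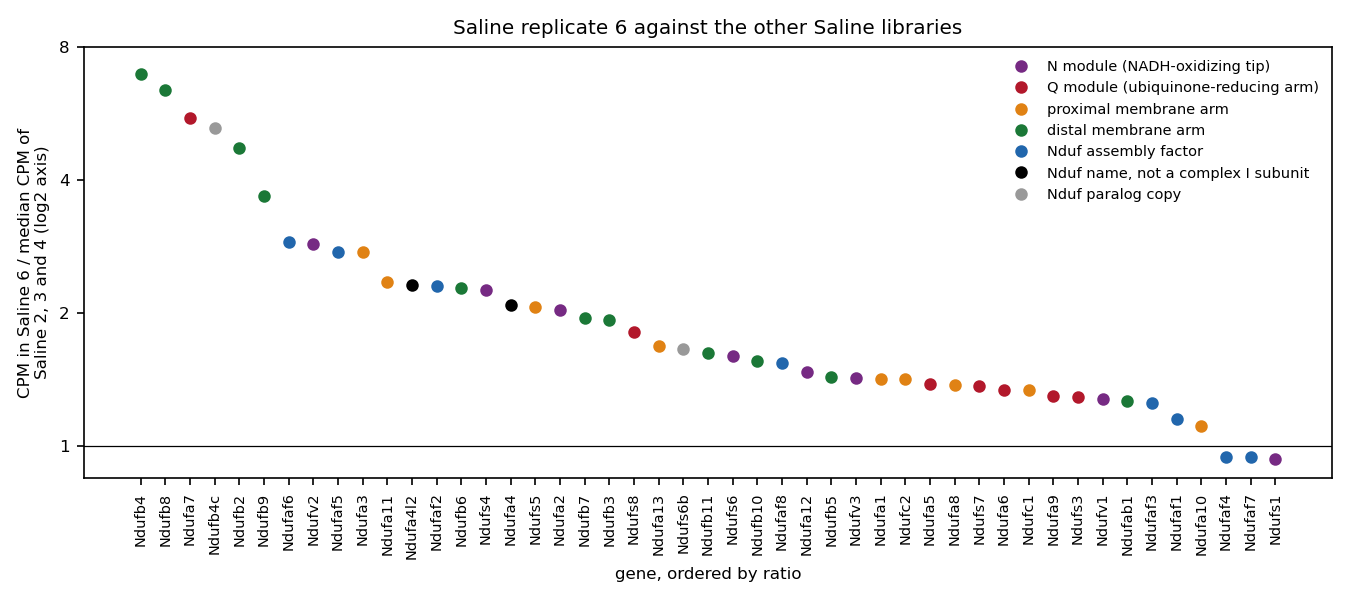
CPM in Saline replicate 6 divided by the median of Saline replicates 2, 3 and 4 (y axis, log2 axis) for tested Nduf genes, ordered by ratio (x axis) and coloured by module or role. The ratio runs from 6.94 (Ndufb4) to 0.935 (Ndufs1), and 3 genes lie below 1. The median over all genes tested is 0.898.

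Transcript length moved with the group differences across all genes. With all tested genes split into 5 equal bins by transcript length, the shortest bin (171 to 1528 bases) had a median of -0.33 in Young serum minus Saline, with 84.3% of genes below 0, and the longest bin 0.26, with 19.1% below 0. The shortest bin holds 27 of 36 subunits and 6 of 8 Ndufaf genes. Within it the subunits had a median of -0.55, with 25 of 27 below the median of the bin, and the Ndufaf genes -0.53 with 5 of 6 below. In Depleted young serum minus Saline, the bin and its subunits were both at -0.23, and 13 of 27 subunits were below the median of the bin. Of all genes of the bin, 79.6% were below 0 there. In Depleted young serum minus Young serum, the bin was at 0.09 and its subunits at 0.30, with 27 of 27 above. Without Saline replicate 6, Young serum minus Saline was -0.23 for the bin and -0.31 for its subunits, 23 of 27 of them below, and in Depleted young serum minus Saline the bin was at -0.13 and its subunits at -0.04. Without Depleted young serum replicate 3, Depleted young serum minus Young serum was 0.06 for the bin and 0.16 for its subunits, 22 of 27 of them above. Ndufs1 and Ndufaf4 have longer transcripts, of 2661 and 3632 bases, in bins 3 and 4. The other subunits with a long transcript, Ndufab1 and Ndufb2 in bin 4, were at -0.50 and -0.83 in Young serum minus Saline. All genes of that bin had a median of 0.11. Ndufb2 stood at 601 CPM in Saline replicate 6, against 124 to 147 CPM in the other Saline libraries. Without that library the median of these 2 subunits was -0.34 and that of the bin 0.03. The bin of both subunits depends on the transcript taken. The part of transcript length in the Nduf differences was not tested further.

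**Figure D5:**
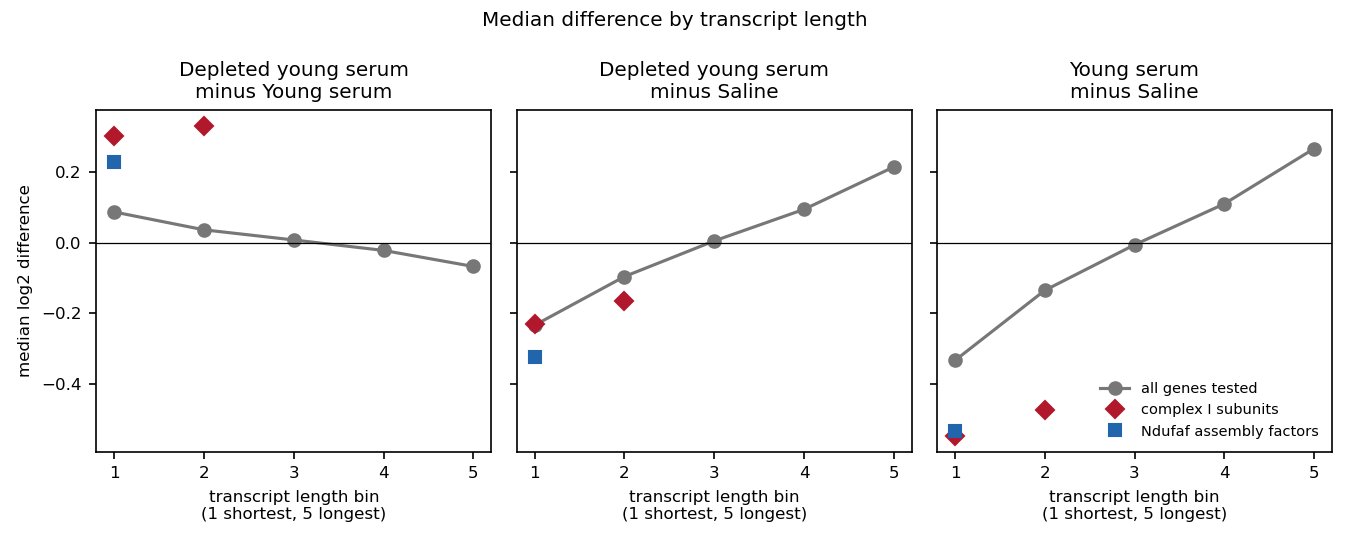
Median log2 difference (y axis) of all tested genes (grey), complex I subunits (diamonds) and Ndufaf assembly factors (squares) in each of 5 bins of transcript length (x axis, 1 shortest, 5 longest) for the 3 comparisons; bins with under 5 members have no symbol. All genes run from -0.33 to 0.26 in Young serum minus Saline, and the subunits of the shortest bin are at -0.55.

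Across libraries the subunits varied together. Over the 11 libraries the median Pearson correlation was 0.88 among the 630 subunit pairs, 0.64 among the 28 Ndufaf pairs and 0.74 between a subunit and an Ndufaf gene. Without Saline replicate 6 these were 0.85, 0.61 and 0.67 over 10 libraries. The genes share libraries and their depth, so these values describe the libraries and are not independent. They include the group differences, and the same correlation over all genes was not taken. Ndufs1 correlated at 0.03 with the median of the subunits, and at 0.26 without Saline replicate 6, and Ndufaf4 at -0.32 and 0.02.

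Copies of some subunits are listed beside them, and reads of near-identical copies cannot be told apart in the deposited values. Ndufb4c held 94.1% of the summed CPM of Ndufb4 and Ndufb4c, and Ndufa12-ps held 79.1% of that of Ndufa12 and its copy. Ndufs6b held 4.19% of the sum with Ndufs6, Ndufs5-ps 15.2% with Ndufs5 and Ndufab1-ps 26.5% with Ndufab1, while Ndufa11b, below the filter on low values, held 0.0602% of the sum with Ndufa11. The levels of Ndufb4 and Ndufa12 are therefore uncertain. With gene and copy summed, Young serum minus Saline was -0.87 for Ndufb4, -0.35 for Ndufa12 and -0.42 for Ndufab1, and Depleted young serum minus Young serum was 0.19, 0.29 and 0.34.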

How the data were processed

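RNA was measured in 11 tibialis anterior libraries, grouped by the injection named in the labels (Depleted young serum 3, Young serum 4, Saline 4). FastQC, STAR and DESeq2 and the build mm10 are named in the submitters' processing notes; versions, roles and how multi-mapped reads and strand were treated are not given in the sources used here. The CPM values were deposited by the authors and sum to 1e+06 per library, with an offset of 0.0001 read from the values. The deposited TPM values, which the values show to be CPM divided by genomic span, served only for coordinates. All 49 Nduf starts and ends matched GENCODE M21 on mm10.

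CPM steps gave depths of 36.4 to 42.2 M reads (M, 1e+06), but 75.4% to 78.7% of low values came out whole within 0.1 reads, so no count model was fitted. Precision is thus limited by the number of libraries and, for low genes, by depth.

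The test took genes that reached 1 CPM in 3 or more libraries (13187, 48 of the 49 members). limma 3.58.1 (R 4.3.3) fitted log2(CPM + 1), pseudocount 1, for the 3 groups in 1 model with a variance trend. Tests were two-sided, and p-values were adjusted by Benjamini-Hochberg at 0.05 over all genes tested. Members, lists, motifs and tests were chosen with earlier results of these data known, so lists are described by counts and medians, with no test. Per comparison, the 4 subunits and 2 Ndufaf genes with the smallest unadjusted p are named, besides the core subunits, all Ndufaf genes, Ndufa4, Ndufa4l2 and the extremes of each module; 1 gene that the rule names is not reported here. Ndufb4c, Ndufs6b and Ndufa11b were set apart as copies after the values were seen. Alternatives were other scalings, filters, pseudocounts, fits and lists, and each library left out. The script was tested on simulated data. Other tools were Python 3.11.15, pandas 2.3.3, numpy 2.4.6 and matplotlib 3.10.9.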

Additional observations from a re-analysis of the deposited data

Results flagged for a closer look

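For 8 of the genes given by library, and for the median of the Ndufaf factors, Saline replicate 6 lay so far above the other 3 Saline libraries that its gap passed Dixon's 95% limit for 4 values. Its levels were 747 CPM for Ndufa4, 18.2 CPM for Ndufaf2, 65.0 CPM for Ndufaf5, 59.9 CPM for Ndufaf6, 287 CPM for Ndufb7, 168 CPM for Ndufs8, 448 CPM for Ndufv1 and 765 CPM for Ndufv2, and the Ndufaf median deviation was 0.58. Chance flags about 1 in 20 groups. Among all 98 groups of 4 values (49 Nduf genes in Young serum and in Saline), Saline replicate 6 was so placed in 20 and Young serum replicate 4 in 1. These groups reuse the same libraries and the genes vary together. They are thus not independent, and the share flagged by chance does not apply to their count. The 3 Depleted young serum libraries are too few for this rule.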

How the results depend on the processing

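The medians of subunits and of Ndufaf factors kept their sign under every alternative run. The gap between them changed sign under 5 alternatives in Depleted young serum minus Saline (up to 0.03) and without Depleted young serum replicate 3 in Depleted young serum minus Young serum (-0.02). Array weights, whose estimate stopped before convergence and gave Saline replicate 3 a weight of 3.32 against 0.208 to 0.563 for the other Saline libraries, called 3441 genes in Young serum minus Saline, 1794 in Depleted young serum minus Saline and 24 in Depleted young serum minus Young serum; 24 (all lower), 1 (Ndufs1, higher, adjusted p = 0.0330) and 0 of them were Nduf genes. With the replicate number as a block, 6 genes were called in Depleted young serum minus Saline, 0 of them Nduf, and with both Saline replicates 4 and 6 left out 2 were. With 1 library left out, 0 to 251 genes were called in Young serum minus Saline (the highest without Saline replicate 2) and 0 to 5 in Depleted young serum minus Saline. The Ndufaf median of Young serum minus Saline was -0.25 without Saline replicates 4 and 6, -0.25 in the replicate block, -0.22 with the other assembly factors added and -0.59 to -0.27 with 1 library left out. With those factors added, subunits minus factors was -0.32 in Young serum minus Saline and -0.18 in Depleted young serum minus Saline. In the latter, without Saline replicate 6, the subunit median was -0.02 and that of the other factors alone 0.01. The cause was not tested. Subunit medians ranged from -0.63 to -0.31, -0.35 to -0.02 and 0.18 to 0.42 with 1 library left out (Young serum minus Saline, Depleted young serum minus Saline, Depleted young serum minus Young serum), and were -0.29, -0.02 and 0.28 in the replicate block. Same-numbered libraries correlated at -0.28 to 0.30, so the numbers are not shown to pair them, and that block in effect drops Saline replicate 6 and Young serum replicate 1 from Young serum minus Saline. Leaving out subunits with a copy, an alternative chosen after seeing the data, gave -0.52, -0.21 and 0.31. At these depths low genes such as Ndufaf2 and Ndufa4l2 are the least precise.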
